A study of Saccharomyces cerevisiae with 11 samples.

Results

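The 6 protein-coding genes of budding yeast examined here are those that the literature reports as cut or controlled by Rnt1: MIG2, BDF2, NPL3, ARN2, HSL1 and SWI4. They are 6 of the 6002 nuclear protein-coding genes in the R64 annotation and were read in ChIP-seq peak lists. They were listed by name from published work, with earlier results of these data known. The study holds 11 samples, of which 4 have a peak list here. These are 2 replicates of Rnt1-myc and 2 replicates of Cbp20-myc. The other 7 samples are RNA-seq and were not used. In ChIP-seq, DNA is pulled down together with a bound protein by an antibody, here raised against the myc tag, and then sequenced to map where the protein sat. Every library came from MATa his3Δ1 leu2Δ0 met15Δ0 ura3Δ0 cells grown in rich medium (YPD) at 30 °C. The Rnt1-myc strain carried RNT1-myc13::NAT, and the strain named Cbp20-myc carried CBP80-myc13::NAT according to its labels, whereas the published strain list gives HIS as the marker. Cbp20 and Cbp80 form the cap-binding complex (CBC) as a pair, and the name Cbp20 is kept here. An untagged strain was not analysed here, so the background of the immunoprecipitation was not tested.

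Rnt1 is the yeast RNase III, a nuclear enzyme that cuts double-stranded stems of RNA. It prefers stems that are capped by a loop of the form AGNN, where N is any base, and cuts a short distance away from the loop. Its best known substrates are precursors of ribosomal RNA, small nuclear RNA and small nucleolar RNA (snoRNA). Cleavage of an mRNA leaves an uncapped 3ʹ fragment open to 5ʹ-3ʹ exonucleases, so that Rnt1 can lower the level of that mRNA. The CBC sits on the cap of nascent RNA and is carried along genes transcribed by Pol II.

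Each list gives the chromosome, start and end of peaks called on its own library, with no height, score or read number. The depth of each library is unknown, and a region without a peak is one that the caller did not report at that depth. The Rnt1 lists hold 1238 and 1741 peaks and the Cbp20 lists 3801 and 3648, which cover 5.92% and 9.98% of the nuclear genome for Rnt1 and 23.1% and 21.6% for Cbp20. A gene carried a peak when at least 1 bp of it lay under a peak in both replicates. The annotation used gives genes from start to stop codon, without untranslated regions, so a window of 500 bp past the 3ʹend was also read. Peaks have no strand. With 2 libraries against 2, an exact two-sided permutation test cannot give a p below 0.333, so values are set side by side without a test.

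To show where Rnt1 could find its preferred loop, the sense strand of each gene and of the 500 bp past it was searched for AGNN hairpins. A hairpin was AGNN with 10 positions on either side, of which at least 9 could pair (Watson-Crick or G-U), the pair next to the loop included. None of the 6 genes held such a hairpin, while 11.8% of all 6002 genes did. With at least 8 of 10 positions paired, BDF2, NPL3 and SWI4 held one, against 51.6% of all genes. Since stems with bulges escape this search, AGNN loops were also folded with 30 bases on either side, with the 3 pairs next to the loop fixed. Only loops whose 3 adjacent positions could pair were folded, between 7 (MIG2) and 13 (HSL1) per member with its window. This fold was added after the ungapped search had been seen. The sequences below are the lowest-energy fold among the loops folded within each coding sequence and, for BDF2 and NPL3, each ungapped match (that of SWI4 is its lowest-energy fold). They are shown because the peaks are later placed against them. They run 5ʹ to 3ʹ in the sense direction of the gene, with the AGNN loop in capitals, and were read from the R64 genome.
MIG2 coding (chrVII:96098-96127, plus strand): agcgtacagaaacAGGAgtttttgacagta
BDF2 coding (chrIV:331335-331364, plus strand): atccactccggaaAGTTttcccgagcaccc
BDF2 ungapped, coding (chrIV:332711-332740, plus strand): atttggatattttAGATgaagcgactattg
NPL3 coding (chrIV:1329393-1329422, plus strand): tgaaaaacttaccAGAAggttgttcatggc
NPL3 ungapped, coding (chrIV:1329799-1329828, plus strand): atatggtggctccAGAGgtggttacgatag
NPL3 ungapped, past the 3ʹend (chrIV:1330209-1330238, plus strand): ttgtttattaataAGTTtagtgttagaaga
ARN2 coding (chrVIII:9039-9068, minus strand): tgcggtagatgagAGCGcttcctcagctac
HSL1 coding (chrXI:252729-252758, plus strand): tattcttgaatcaAGTAtgagctattcaaa
SWI4 coding (chrV:384853-384882, minus strand): tgatcatagttccAGACggacctatgcaaa

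The runs above show 13 bases on either side of each loop, a part of the folded window. Beyond the 3 fixed pairs the window could pair freely, so its energy is not that of the printed stem alone. The predicted folding energy of the whole coding window was −14.2 kcal/mol in MIG2 and −14.3 kcal/mol in ARN2. It was −12.2 kcal/mol in NPL3, −9.8 kcal/mol in SWI4, −9.6 kcal/mol in BDF2 and −6.7 kcal/mol in HSL1. A coding window with as low an energy was found in 12.2% of all genes for MIG2, 11.6% for ARN2, 23.0% for NPL3, 43.1% for SWI4, 45.5% for BDF2 and 70.2% for HSL1. Longer genes hold more AGNN loops, and these matches were not compared with mapped cleavage sites. In MIG2, HSL1 and no other member a lower energy was found past the 3ʹend, at −14.7 and −10.0 kcal/mol. A window past the 3ʹend with as low an energy was found in 1.97% of all genes for MIG2. For HSL1 this share was also below every coding share given above. The shares past the 3ʹend come from 500 bp per gene, and the coding shares from coding sequences of any length. As the regions searched differ in length, these shares do not show whether the fold past the 3ʹend of MIG2 or HSL1 is rarer than its coding fold.

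The 6 genes fell into 2 sets of 3 by Rnt1. MIG2, BDF2 and NPL3 carried a Rnt1 peak in each replicate on the gene, and ARN2, HSL1 and SWI4 carried none in either replicate, on the gene or within 500 bp of its 3ʹend. Read alone, each replicate gave the same 3 genes, where 13.5% of all genes carried a peak in replicate 1 and 20.6% in replicate 2. Of all genes, 12.9% carried a Rnt1 peak on the gene in both replicates and 18.0% on the gene or within 500 bp of the 3ʹend. Neither replicate had a Rnt1 peak there in 72.4% of all genes. A Cbp20 peak lay on 5 of the 6 genes in both replicates, all but SWI4, where 44.9% of all genes had one. With the 500 bp past the 3ʹend included, the same 5 members carried Cbp20, as did 54.9% of all genes. The map of peaks along the 6 genes shows these sets.

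**Figure D1:**
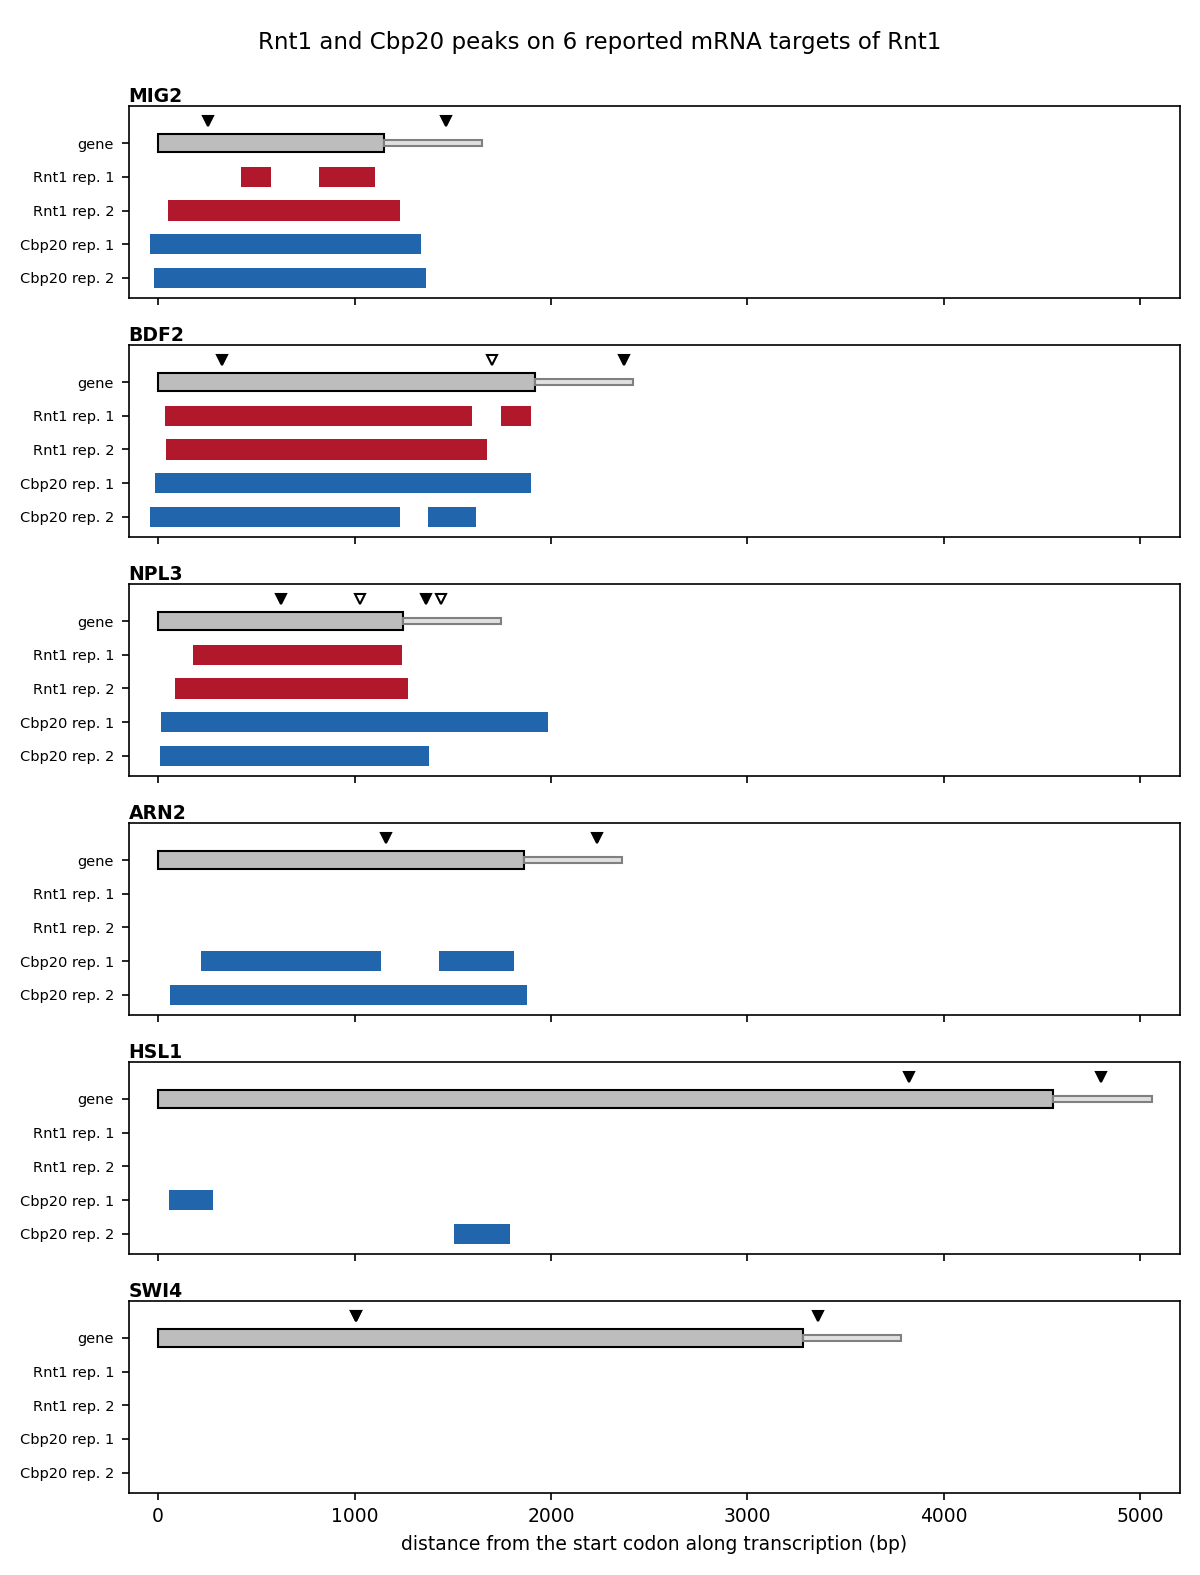
Peaks of Rnt1 (red) and Cbp20 (blue) in each replicate along the 6 genes, in bp from the start codon in the direction of transcription. Grey boxes are coding sequences and the thin boxes the 500 bp past the 3ʹend. Filled triangles mark the lowest-energy AGNN fold of the coding sequence and of the window past it, and open triangles the ungapped matches with 8 of 10 positions paired (in SWI4 an open one lies under the filled one). Rnt1 peaks appear on MIG2, BDF2 and NPL3 and on none of the other 3 genes.

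MIG2 (YGL209W, chromosome VII from 95858 to 97006 of sacCer3, plus strand) encodes a zinc finger repressor that acts in glucose repression. Its coding sequence is 1149 bp long. In replicate 1 it carried 2 narrow Rnt1 peaks, from 96279 to 96430 and from 96677 to 96961, which covered 437 bp of the gene (38.0%). In replicate 2 a single Rnt1 peak from 95908 to 97088 covered 1099 bp (95.6%). Coverage by Rnt1 was thus far apart in the replicates, at 66.8 ± 40.7% (SD, n = 2), although every base under a peak in replicate 1 was also under the peak in replicate 2. The narrower of the replicate 1 peaks was 152 bp wide, and 98.4% of the peaks in that list were at least as wide. When only the wider 50% of each list's peaks were kept, MIG2 no longer carried a Rnt1 peak in both replicates. Cbp20 covered the whole gene in both replicates, from 42 bp and 19 bp upstream of the start codon to 189 bp and 215 bp past the 3ʹend. The Rnt1 peaks stopped 45 bp before the 3ʹend in replicate 1 and 82 bp past it in replicate 2. The AGGA hairpin shown above, whose loop begins at base 254 of the coding sequence, lay under Rnt1 in replicate 2 and outside both peaks of replicate 1. The fold of lower energy past the 3ʹend lay outside the peaks of both proteins. It was 360 bp and 233 bp from the Rnt1 peaks of replicates 1 and 2, and 126 bp and 100 bp from the Cbp20 peaks.

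BDF2 (YDL070W, chromosome IV from 331024 to 332940, plus strand) encodes a bromodomain protein that binds acetylated histones and overlaps in function with Bdf1. Of its 1917 bp, Rnt1 peaks covered 1716 bp in replicate 1 and 1631 bp in replicate 2, a mean of 87.3 ± 3.14% (SD, n = 2). The main peak spanned positions 331060 to 332623 in replicate 1, where replicate 2 had a peak between 331065 and 332695. Their 5ʹ edges fell at bases 37 and 42 of the gene. Replicate 1 had a second, narrow peak from 332771 to 332922, so that the peaks ended 18 bp before the 3ʹend there and 245 bp before it in replicate 2. No Rnt1 peak reached past the 3ʹend of BDF2. Cbp20 covered 1898 bp and 1477 bp (88.0 ± 15.5%, SD, n = 2), in 1 peak in replicate 1 and 2 peaks in replicate 2. In replicate 2, Rnt1 covered more of the gene than Cbp20 did, and 88.0% of the bases under Rnt1 were also under Cbp20. The AGTT fold of the coding sequence lay under Rnt1 in both replicates. The ungapped AGAT match, with its loop at base 1701, fell in the gap between the peaks of replicate 1 and 29 bp past the end of the peak of replicate 2.

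NPL3 (YDR432W, chromosome IV from 1328783 to 1330027, plus strand) encodes an abundant RNA-binding protein with an RGG domain that acts in mRNA export, splicing and the control of termination. The reported action of Rnt1 at NPL3 concerns termination, through cleavage of transcripts that run past the gene. Rnt1 covered 1064 bp of the 1245 bp in replicate 1, from 1328961 to 1330024, and 1160 bp in replicate 2, from 1328868 to 1330053. This was 89.3 ± 5.45% of the gene (SD, n = 2), and 91.7% of the bases under Rnt1 in either replicate were shared by both. The 3ʹ edge of the peak lay 3 bp before the 3ʹend in replicate 1 and 26 bp past it in replicate 2. Cbp20 began at bases 15 and 12 of the gene and ended 741 bp downstream of it in replicate 1 and 133 bp downstream in replicate 2. In both replicates, then, the Cbp20 peak reached further past NPL3 than the Rnt1 peak did, by an amount that differed widely between replicates. The AGTT match past the 3ʹend, with its loop 195 bp past the stop codon, lay 198 bp and 169 bp beyond the Rnt1 peaks and inside the Cbp20 peak of replicate 1 alone. The AGAA fold in the coding sequence and the ungapped AGAG match, whose loop begins at base 1030, lay under both proteins in both replicates.

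Set against all genes, the share of coding sequence under Rnt1 was high for BDF2 and NPL3 in both replicates. Of the 6002 genes, 3.08% had as large a share as BDF2 in replicate 1 and 6.71% in replicate 2. For NPL3 these values were 3.65% and 4.85%, and for MIG2 7.53% and 4.17%. Among the 775 genes with a Rnt1 peak in both replicates, the median share was 52.9% in replicate 1 and 83.7% in replicate 2. BDF2 and NPL3 lay above the median in both replicates, and MIG2 below it in replicate 1 and above it in replicate 2. Rnt1 covered at least 50% of the gene in both replicates in BDF2 and NPL3, as it did in 6.60% of all genes.

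**Figure D2:**
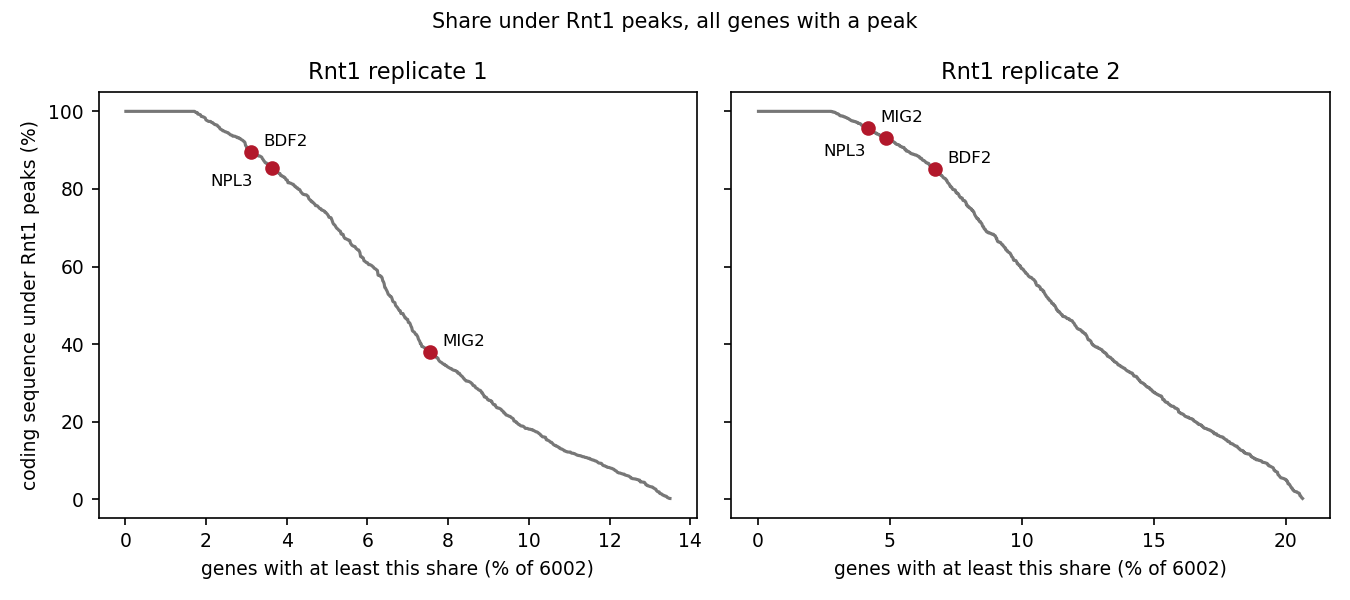
Share of coding sequence under Rnt1 peaks (y axis, percent) against the percent of all 6002 genes with at least that share (x axis), for genes with a peak in replicate 1 (left) and replicate 2 (right). Red points are the 3 members with a peak. BDF2 and NPL3 stand at 85.1% or more in both replicates, and MIG2 moves from 38.0% to 95.6%.

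The Rnt1 peaks of these 3 genes lay mainly on the genes. None of the 6 genes had Rnt1 within 500 bp past the 3ʹend in both replicates, where 12.9% of all genes did. With so few genes, this count does not set the members apart from all genes. MIG2 and NPL3 had it in replicate 2 alone, over 82 bp and 26 bp of the window. Of all genes, 18.1% had Rnt1 there in replicate 2. Cbp20 lay in this window in both replicates in MIG2 and NPL3, 2 of the 6 members, and in 35.1% of all genes. Over the 775 genes with a Rnt1 peak in both replicates, the median 3ʹ edge lay 81 bp past the 3ʹend in replicate 1 and 69 bp past it in replicate 2. The peaks ended inside the gene in 39.5% and 37.0% of them. Of the bases under Rnt1, 65.2% in MIG2, 46.2% in BDF2 and 58.2% in NPL3 lay on the 3ʹ side of the gene's midpoint in replicate 1, and 52.2%, 43.7% and 53.6% in replicate 2. The medians over the 775 genes were 58.9% and 52.3%. Of these 3 genes, BDF2 was the member with Rnt1 placed furthest towards the 5ʹend in both replicates, and its peaks left the last 245 bp of the gene uncovered in replicate 2. Of the bases under Cbp20 on BDF2, 49.5% lay on the 3ʹ side in replicate 1 and 35.1% in replicate 2.

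No snoRNA, small nuclear RNA or tRNA gene lay close to these peaks. The nearest gene of that kind was 7552 bp from BDF2 (SNR63), 13618 bp from MIG2 and 22438 bp from NPL3. Without peaks that touch such genes, the same 3 members kept Rnt1 on the gene in both replicates, as did 11.4% of all genes. No peak of either protein that touched a member also touched another annotated gene.

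ARN2 (YHL047C, chromosome VIII from 8351 to 10213, minus strand) encodes a transporter that takes up iron bound to siderophores and is induced when iron is scarce. It lies 8350 bp from the chromosome end. Cbp20 covered 1300 bp of its 1863 bp in replicate 1, in 2 peaks, and 1803 bp in replicate 2, in a single peak (83.3 ± 19.1%, SD, n = 2). Rnt1 had no peak on ARN2 in either replicate. The nearest Rnt1 peak lay 24159 bp away in replicate 1, over RPL8A, and 7672 bp away in replicate 2, near the chromosome end. Cbp20 in both replicates with Rnt1 in neither was found on ARN2 and HSL1, 2 of the 6 members, and on 25.1% of all genes. Cbp20 covered at least 50% of the gene in both replicates in 4 of the 6 members and in 27.4% of all genes, and of those 4 members ARN2 was the only gene without Rnt1. Among all 1643 genes with as much Cbp20, 39.2% carried Rnt1 in both replicates. The ARN2 fold with an AGCG loop lay 26 bp outside a Cbp20 peak in replicate 1 and inside the peak of replicate 2.

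HSL1 (YKL101W, chromosome XI from 248920 to 253476, plus strand) encodes a protein kinase of the morphogenesis checkpoint that promotes entry into mitosis. It is the longest of the 6 genes, with 4557 bp. A Cbp20 peak was present in each replicate, but at different places. In replicate 1 it spanned 248976 to 249197, close to the 5ʹend, while in replicate 2 it lay between 250424 and 250708. They covered 222 bp and 285 bp (5.56 ± 0.978%, SD, n = 2) and shared no base, so that HSL1 counted as a carrier only because any base of the gene sufficed. Among the peaks of their lists, 83.0% and 78.6% were at least as wide. Rnt1 had no peak within 5150 bp of HSL1 in replicate 1 and within 5109 bp in replicate 2.

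SWI4 (YER111C, chromosome V from 382595 to 385876, minus strand) encodes the DNA-binding subunit of SBF, a transcription factor that switches on G1/S genes together with Swi6. It had no peak of either protein in either replicate over its 3282 bp or the 500 bp past its 3ʹend. A Cbp20 peak was lacking there in both replicates in 34.2% of all genes. The nearest Cbp20 peaks lay 508 bp and 538 bp past its 3ʹend, over KAP123, which begins 491 bp downstream on the same strand. The nearest Rnt1 peak lay 11134 bp away in replicate 1 and 1007 bp away in replicate 2, where it too fell on KAP123. The window of 500 bp thus ended just short of the Cbp20 peaks over KAP123. With a window of 1000 bp SWI4 counted as a Cbp20 carrier and still not as a Rnt1 carrier. The Rnt1 peak of replicate 2, at 1007 bp, lay just beyond that window, and that of replicate 1, at 11134 bp, far beyond it.

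**Figure D3:**
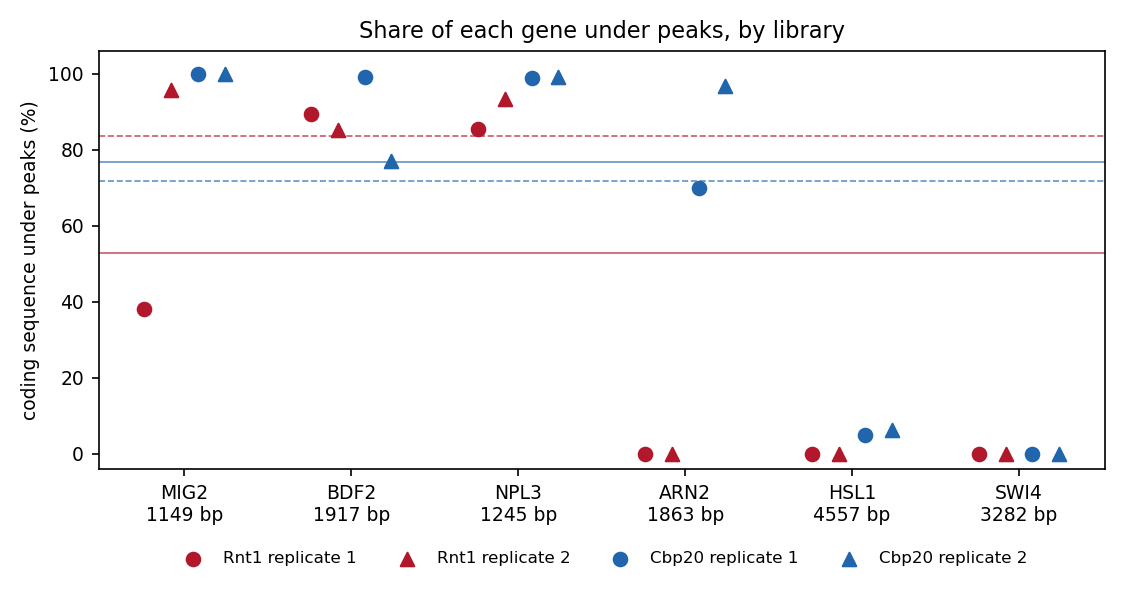
Percent of each coding sequence under peaks (y axis) in the 4 libraries, with the coding length under each name. Circles are replicate 1 and triangles replicate 2, red is Rnt1 and blue Cbp20. Horizontal lines give the median over all genes with a peak of that protein in both replicates (solid for replicate 1, dashed for replicate 2). ARN2 is the gene with high Cbp20 and no Rnt1, and HSL1 and SWI4 lie at 6.25% or below for both proteins.

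In the 3 members with Rnt1, most bases under it were also under Cbp20. All bases under Rnt1 in MIG2 and NPL3 were also under Cbp20 in the library of the same replicate number, and in BDF2 99.9% and 88.0% were. The median over the 775 genes with Rnt1 in both replicates was 100% in either replicate, the value of MIG2 and NPL3. Rnt1 and Cbp20 were both present in both replicates on 3 of the 6 members and on 12.5% of all genes. Of the 5 members with Cbp20 in both replicates, 3 carried Rnt1, as did 27.8% of all genes with Cbp20 in both replicates. Length differed between the sets, since MIG2 and NPL3 are the shortest members and HSL1 and SWI4 the longest. Rnt1 lay in both replicates on 2 of 2 members up to 1500 bp and on 13.8% of all genes of that length. It lay on 1 of 2 members of 1501 to 3000 bp and 11.2% of such genes. Among longer genes it lay on 0 of 2 members and 12.1% of all. A part of length in the split of the members was not tested.

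The members were set beside 12 relatives and partners, namely MIG1 and MIG3 for MIG2, BDF1 for BDF2, GBP2 and HRB1 for NPL3, ARN1, SIT1 and ENB1 for ARN2, GIN4 and KCC4 for HSL1, and MBP1 and SWI6 for SWI4. Rnt1 lay on 3 of these 12 genes in both replicates (BDF1, GBP2 and MBP1) and Cbp20 on 9, against 12.9% and 44.9% of all genes. BDF1, the paralogue of BDF2, was covered by Rnt1 and by Cbp20 over its whole 2061 bp in every replicate, more than BDF2 itself. Over BDF1 the Rnt1 peak started 394 bp before the start codon in replicate 1 and 691 bp before it in replicate 2, and ended 36 bp and 48 bp downstream of the gene. MIG1, the main glucose repressor related to MIG2, had Cbp20 over 89.0 ± 4.81% of the gene (SD, n = 2) and no Rnt1 peak, and MIG3 had neither protein. GBP2, which encodes an SR-like mRNA export factor as does HRB1, had Rnt1 peaks of 152 bp and 563 bp that shared no base. HRB1 had Rnt1 on the gene in replicate 2 alone.

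None of the 3 relatives of ARN2 carried Rnt1 in both replicates. SIT1 and ENB1, which are siderophore transporters like ARN2, had Rnt1 over 24.7% and 56.0% of the gene in replicate 2 and none in replicate 1. Cbp20 covered 98.6 ± 0.787% of SIT1 and 98.5 ± 2.14% of ENB1 (SD, n = 2 each). ARN1 resembled ARN2, with Cbp20 over 52.2% and 89.9% of the gene and no Rnt1. GIN4 and KCC4, kinases related to HSL1, had no Rnt1 on the gene. Past the 3ʹend of GIN4, Rnt1 peaks in both replicates covered the tRNA gene YNCD0031C, 528 bp from GIN4. Past the 3ʹend of KCC4, a Rnt1 peak of 219 bp over the tRNA gene YNCC0001C was found in replicate 1 alone. MBP1, which encodes the DNA-binding subunit of the related factor MBF, had Rnt1 over its last 124 bp and 200 bp, and a further Rnt1 peak began past its 3ʹend and covered PSA1. SWI6, the partner shared by SBF and MBF, had no peak of either protein, like SWI4.

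**Figure D4:**
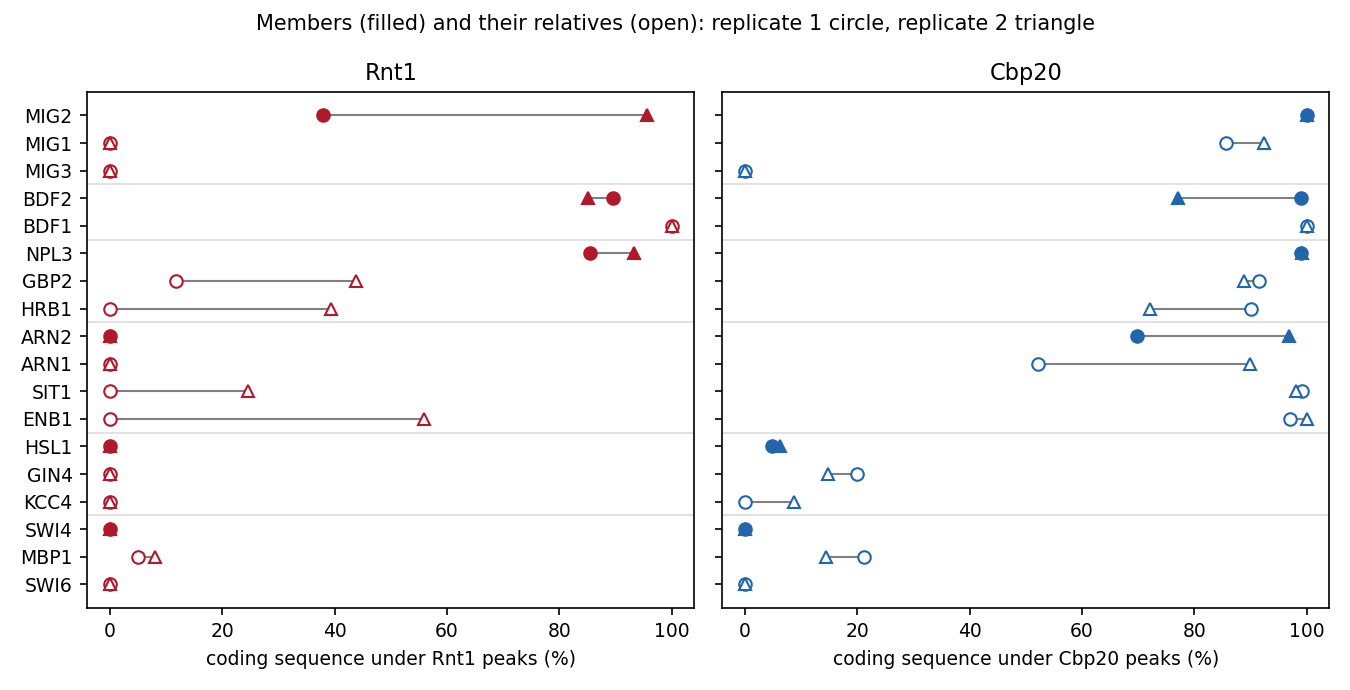
Percent of coding sequence under Rnt1 peaks (left) and Cbp20 peaks (right) for the 6 members (filled) and 12 relatives or partners (open), grouped by member. Circles are replicate 1, triangles replicate 2 and grey lines join them. BDF1 stands at 100% for both proteins, and SIT1, ENB1 and HRB1 have Rnt1 in replicate 2 alone.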

How the data were processed

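The authors aligned read pairs to sacCer3 with Bowtie2, kept uniquely mapped reads with a mapping quality of at least 30, called peaks with MACS2 at default options and kept those with a q-value below 0.05. The lists the authors deposited hold peak positions in bp, called for each library, and no other values. Read depth and tool versions are not given in the sources used here. A deeper library could have more and wider peaks, and intervals on occupancy could not be given.

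Every peak lay inside the R64 chromosome lengths. Coordinates are counted from 1. Bases under peaks were counted with Python 3.11.15, tested on simulated data. Hairpins were searched in the R64 genome and folded with RNAfold 2.7.2. Libraries were grouped by title. In each strain, replicate 1 is the library whose title has no number, and the labels do not say whether replicates came from separate cultures. The authors state that several immunoprecipitations were pooled for ChIP-seq, so a list does not stand for a single one.

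The members, the relatives and the rules were chosen with earlier results of these data known. All 6 members and 12 relatives are named. For the relatives, values are given for those with Rnt1 in both replicates and for others chosen after their values were seen. Neighbours within 500 bp past the 3ʹend were SIP2 (331 bp from MIG2), CBS1 (180 bp from BDF2), YPF1 (220 bp from HSL1) and KAP123 (491 bp from SWI4). The windows past these 4 members therefore reached into their neighbours. CYM1 lay 312 bp from the 5ʹend of NPL3. Alternatives were a 50% overlap, the wider 50% of peaks (the lists hold no score), windows of 300 bp and 1000 bp, each replicate left out, peaks over snoRNA, snRNA or tRNA genes left out, and looser or stricter hairpins.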

Additional observations from a re-analysis of the deposited data

How the results depend on the processing

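The same 3 members carried Rnt1 on the gene or within 500 bp of its 3ʹend with either replicate left out, with windows of 300 bp and 1000 bp and without peaks over snoRNA, snRNA or tRNA genes. The share of all genes was 26.9% without replicate 1 and 18.7% without replicate 2. It was 16.0% and 21.9% with these windows, and 14.6% without those peaks. BDF2 and NPL3 alone remained with a 50% overlap or with the wider 50% of peaks, settings under which HSL1 also lost its Cbp20 call. At these settings 6.01% and 11.8% of all genes carried Rnt1, and 23.8% and 37.4% carried Cbp20. A window of 1000 bp added SWI4 to the Cbp20 carriers, which then made up 60.3% of all genes. The count of members with Rnt1 past the 3ʹend was 0, and ranged from 0 to 2 with a replicate left out, where replicate 2 alone gave MIG2 and NPL3. Of all genes, 12.9% had Rnt1 there in both replicates. The share was 18.1% with replicate 2 read alone and 13.9% with replicate 1 read alone. The count of members with Cbp20 past the 3ʹend fell from 2 to 0 with a 50% overlap, and was 2 to 3 with a replicate left out. Among all genes the share with Cbp20 there, 35.1% at the main setting, moved too. It also fell with a 50% overlap and was higher with either replicate left out, so the fall was not particular to the members. The count of members with an AGNN hairpin rose from 0 to 3 with 8 of 10 positions paired, and stayed at 0 with 10 of 10 or with Watson-Crick pairs only. The share of all genes rose from 11.8% to 51.6%, and was 0.966% and 0.666% under the stricter rules. The share of MIG2 under Rnt1 was 38.0% to 95.6% with a replicate left out, and that of HSL1 under Cbp20 was 0 with the wider 50% of peaks. No paired analysis was possible because the groups share a single labelled replicate number and no result comes from a test. With unknown depth and no peak heights, a missing peak does not show that a protein was absent.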
